A study of Mus musculus with 6 samples.

Results

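A set of 9 transcription factors that shape the identity of macrophages of the peritoneal cavity were followed in cell-sorted peritoneal macrophages (PMs) from lupus-diseased and control mice. The genes, Gata6, Cebpb, Bhlhe40, Rxra, Spi1, Irf8, Irf4, Maf and Arid3a, were chosen by name as factors of resident large or of monocyte-derived PMs, out of 32875 genes with a count record. The choice was made with earlier results of these data known. Arid3a is among the genes that the study itself listed as upregulated from these mice, so its difference is not an independent result. All 9 passed the filter on low counts, which left 10502 genes for testing.

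RNA was sequenced from 3 control and 3 diseased-BWF1 mice, with 1 library per mouse, and the authors deposited whole-number counts for each RefSeq transcript record, which were summed here per gene. Control mice were non-lupus-susceptible F1 offspring of New Zealand white and BALB/c parents, aged 33, 33 and 30 weeks. Diseased-BWF1 mice were F1 offspring of New Zealand black and New Zealand white parents, aged 31, 31 and 34 weeks, with high anti-dsDNA antibodies and severe proteinuria. All mice were female and PMs were sorted as F4/80+ CD11b high cells, and the labels name no treatment. New Zealand white is a parent of both groups, and the second parental strain differs between them, so that disease and strain background cannot be told apart. No source ties mice of the same number to each other, and each library is a separate mouse.

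Macrophages acquire a tissue identity when factors of the myeloid lineage, led by PU.1 (the product of Spi1), act together with factors induced by the tissue. In the peritoneal cavity, retinoic acid made by stromal and omental cells induces Gata6 in large resident PMs, and retinoid X receptors, C/EBPβ and Bhlhe40 are needed for the number or renewal of these cells. A smaller, monocyte-derived population depends on IRF4, while IRF8 directs monocyte and dendritic cell commitment, c-MAF restrains macrophage self-renewal and Arid3a is best known as an activator of immunoglobulin heavy chain transcription in B cells.

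Promoter windows from RefSeq on GRCm38.p6 were held for 4 of the 9 genes, Irf4, Irf8, Cebpb and Rxra, with 6 windows in all. These 4 genes are shown because no window was held for the other factors, which include Spi1, Gata6 and Arid3a. Each window holds the 250 bases before a start on the plus strand. Windows were searched on both strands for letters of 7 motifs bound by factors of the families described here. The E-box was searched as CACGTG, the motif of C/EBP factors as TTGCNNAA, the core of PU.1 sites as GAGGAA and that of GATA-factor sites as GATAA. Nuclear receptor letters were AGGTCA, those of MAF factors were TGCTGA, and those of interferon regulatory factors were GAAA, any 2 bases, and the same letters again. Capitals mark a match, on either strand.
Irf4, chr13:30748983-30749232: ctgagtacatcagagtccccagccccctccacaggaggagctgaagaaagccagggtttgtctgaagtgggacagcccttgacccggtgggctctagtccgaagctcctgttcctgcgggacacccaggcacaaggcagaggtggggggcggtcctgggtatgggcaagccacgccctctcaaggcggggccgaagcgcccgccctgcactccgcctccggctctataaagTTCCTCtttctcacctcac
Irf8, chr8:120736108-120736357: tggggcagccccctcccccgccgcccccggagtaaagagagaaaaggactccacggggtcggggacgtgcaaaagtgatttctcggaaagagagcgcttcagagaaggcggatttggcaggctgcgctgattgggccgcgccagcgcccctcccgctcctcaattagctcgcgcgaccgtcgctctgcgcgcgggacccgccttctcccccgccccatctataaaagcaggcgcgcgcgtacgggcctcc
Cebpb, chr2:167688665-167688914: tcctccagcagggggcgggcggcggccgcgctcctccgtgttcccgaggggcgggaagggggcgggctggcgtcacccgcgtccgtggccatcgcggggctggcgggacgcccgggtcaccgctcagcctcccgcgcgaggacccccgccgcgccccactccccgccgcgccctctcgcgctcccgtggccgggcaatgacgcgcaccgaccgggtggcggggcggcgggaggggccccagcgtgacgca
Rxra, chr2:27709042-27709291: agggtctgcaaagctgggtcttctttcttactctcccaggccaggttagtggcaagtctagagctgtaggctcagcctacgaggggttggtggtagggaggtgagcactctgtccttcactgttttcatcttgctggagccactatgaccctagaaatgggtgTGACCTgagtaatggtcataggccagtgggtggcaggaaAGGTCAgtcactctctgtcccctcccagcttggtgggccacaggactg
The Irf4 window held the PU.1 core once, at base 232 on the minus strand, and 23.3% of 32851 promoters of the same length held it. The Rxra window shown, which precedes an internal start, held the nuclear receptor letters at bases 164 and 203, found in 14% of promoters. No motif was found in the windows shown for Irf8 and Cebpb, nor in the other Rxra window, which is nearer the start of the gene and not shown (chr2:27676951-27677200). Among all promoters the letters searched for E-box, C/EBP, GATA and interferon regulatory factors were held by 6.02%, 9.56%, 22.6% and 2.98%. The MAF letters lay at base 94 of another Irf8 window (16.1% of promoters). The matches describe the letters of these windows and are not evidence of binding.

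In PMs from diseased-BWF1 mice, Arid3a was the only one of the 9 transcription factors called higher and none was called lower. Its normalized count was 137 ± 2.55 in diseased-BWF1 mice against 66.9 ± 5.76 in control mice (SD, n = 3), which is 1.03 higher on the log2 scale. Gata6 and Spi1 had nearly equal means in both groups, and Maf had a lower level in every diseased-BWF1 mouse than in any control mouse without passing the adjusted threshold. Calls required a change of 1.5-fold or more and, in the quasi-likelihood test of edgeR, p under 0.05 after Benjamini-Hochberg adjustment over all genes tested. By this rule 128 of the 10502 genes (1.22%) were called, 0.400% of the genes as higher and 0.819% as lower. DESeq2 called 3.55% of the genes, 1.27% as higher and 2.29% as lower, and among the 9 factors it called Arid3a as higher and Maf as lower. An unadjusted p under 0.05 was found for 3 of the 9 (Arid3a, Maf and Irf4), against 13.2% of all genes. The median log2 fold change was 0.01 for the 9 factors as for all genes tested.

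**Figure D1:**
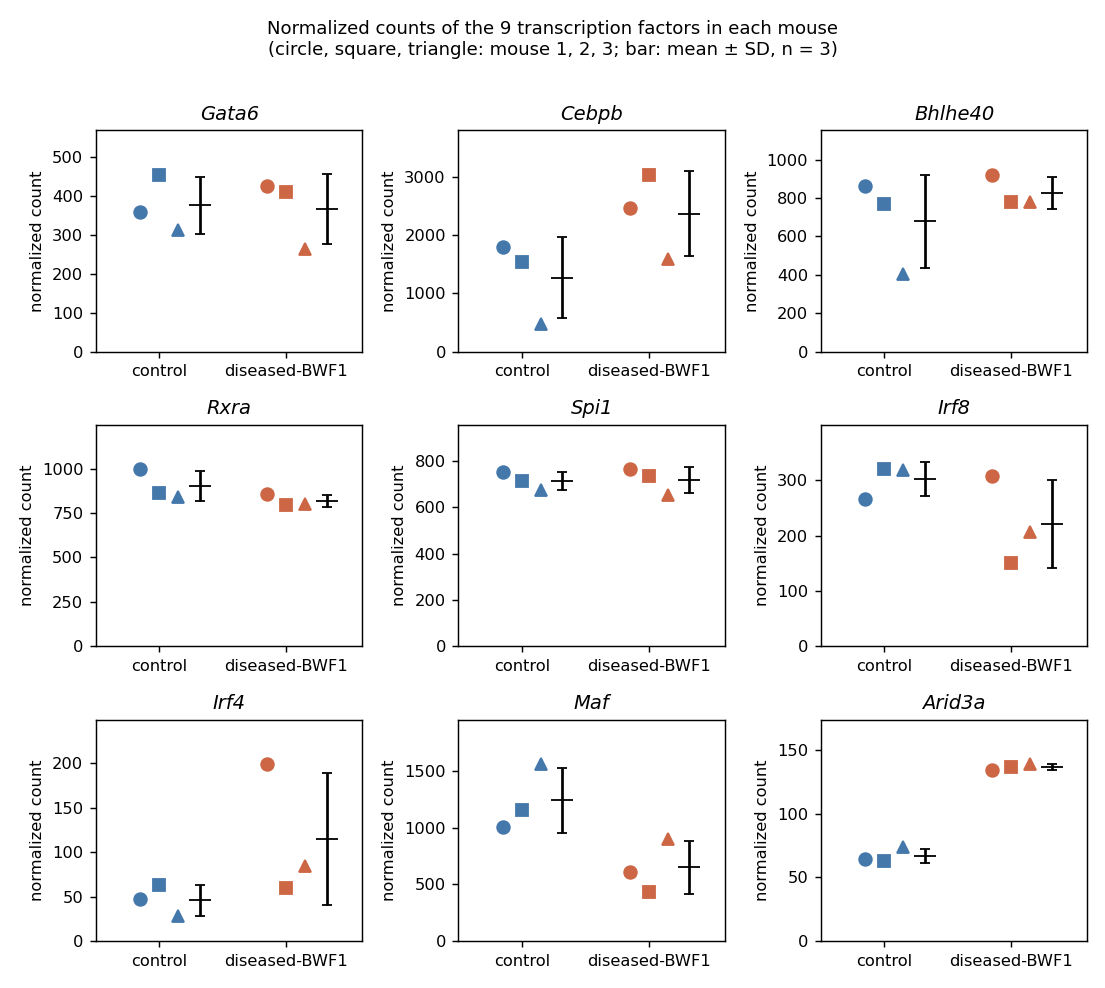
Normalized counts (vertical axes, each starting at 0) of the 9 transcription factors in each control and diseased-BWF1 mouse. Points are mice and bars are the mean ± SD of 3 mice. The groups are apart for Arid3a, with diseased-BWF1 mice at 134 to 139 and control mice at 62.8 to 73.5, and for Maf in the opposite direction.

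Total counts ranged from 3629901 to 5003360 per library, and 89.1% to 93.0% of them lay on genes. The third control library stood apart from the others, with a correlation of log2 CPM of 0.931 and 0.928 with the other control libraries, which correlated at 0.961 with each other. The level that 3 counts can show was 0.652 to 0.888 CPM (counts relative to the library's sum), a floor for counting error only. The 9 factors lay well above it, with Irf4 in the third control mouse the lowest at 24 counts. None of the 75-base stretches of their annotated transcripts (0%) occurs in another gene.

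The first group comprised the lineage factors. Spi1 encodes PU.1, the factor required for the myeloid lineage, and lies on chromosome 2 from 91082374 to 91115759 (GRCm38.p6). Its normalized counts, scaled with DESeq2's size factors, were 751, 716 and 676 in control mice and 765, 737 and 656 in diseased-BWF1 mice. The ranges overlapped almost completely, with means of 715 ± 37.5 and 719 ± 56.8. The log2 fold change was 0.01 (95% interval -0.28 to 0.30, adjusted p = 0.991, edgeR), so that the interval held no change of 1.5-fold.

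Irf8, on chromosome 8 from 120736358 to 120756694, encodes an interferon regulatory factor that partners PU.1 on DNA. Control mice had 266, 320 and 319 normalized counts and diseased-BWF1 mice 308, 149.9 and 206. Diseased-BWF1 mice 2 and 3 were below all control mice, whereas mouse 1 lay within the control range. On the log2 scale the difference was -0.45 (SE 0.25, 95% interval -1.04 to 0.15, adjusted p = 0.514, edgeR) and ranged from -0.77 without the first diseased-BWF1 mouse to -0.23 without the second. The gene Gm20388 overlaps Irf8 on the same strand. Their annotated transcripts share no 75-base stretch, and the part of Gm20388 reads in the Irf8 count was not tested.

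Cebpb, on chromosome 2 from 167688915 to 167690432, encodes C/EBPβ, a bZIP factor of macrophage differentiation and inflammatory responses. Its normalized counts were 1791, 1531 and 475 in control mice and 2467, 3032 and 1585 in diseased-BWF1 mice. The third control mouse was far below the other 5 mice, and the lowest diseased-BWF1 mouse lay between the first and second control mice. The means were 1266 ± 697 and 2362 ± 729, with a log2 fold change of 0.90 (SE 0.47, 95% interval -0.20 to 2.00, adjusted p = 0.481, edgeR). Without the third control mouse the log2 fold change was 0.51. Tmem189 overlaps Cebpb on the opposite strand, with 287 to 401 counts per library, and whether strand was used in counting is not given in the sources used here.

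The factors of large resident PMs formed the second group. Gata6 encodes the zinc finger factor that defines these cells and lies on chromosome 18 from 11052510 to 11085636. Its normalized counts were 359.1, 453.7 and 311.2 in control mice and 424.9, 409.1 and 262.2 in diseased-BWF1 mice. The highest value belonged to a control mouse and the lowest to a diseased-BWF1 mouse, and the ranges overlapped over most of their width. The means were 375 ± 72.5 and 365 ± 89.7, and the log2 fold change was -0.04 (95% interval -0.57 to 0.49, adjusted p = 0.966, edgeR). The sign of this value changed when libraries were left out in turn (-0.17 to 0.16), and the interval held no change of 1.5-fold in either direction. Gata6 was among the more abundant genes, above 82.5% of those tested.

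Rxra, on chromosome 2 from 27676445 to 27763319, encodes retinoid X receptor alpha, the obligate partner of several nuclear receptors. Control mice had 996, 863 and 839 normalized counts and diseased-BWF1 mice 855, 793 and 803. The ranges overlapped only through the first diseased-BWF1 mouse, and the spread was small in both groups (899.6 ± 84.5 and 817 ± 33.6). Between the groups the log2 difference was -0.14 (95% interval -0.44 to 0.15, adjusted p = 0.695, edgeR).

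Bhlhe40, on chromosome 6 from 108660629 to 108666925, encodes a basic helix-loop-helix repressor. It had 864, 769 and 405 normalized counts in control mice and 922, 777 and 779 in diseased-BWF1 mice. Again the third control mouse was lowest, and the other control mice lay near or within the diseased-BWF1 range. On the log2 scale the difference was 0.28 (SE 0.27, 95% interval -0.35 to 0.91, adjusted p = 0.715, edgeR) and was 0.02 without the third control mouse. Cebpb and Bhlhe40 thus had their lowest level in the same library, the one that stood apart over all genes.

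The remaining factors had larger differences between the groups. Arid3a, on chromosome 10 from 79927043 to 79955018, encodes a DNA-binding protein with an AT-rich interaction domain. Its normalized counts were 64.5, 62.8 and 73.5 in control mice and 134, 137 and 139 in diseased-BWF1 mice. Every diseased-BWF1 mouse was above every control mouse, as was the case for 9.58% of all genes tested, and the spread was small in both groups. The log2 fold change was 1.03 (SE 0.14, 95% interval 0.70 to 1.36, adjusted p = 0.0263, edgeR), and Arid3a ranked 51 of 10502 genes by p. DESeq2 gave an adjusted p of 0.000376. The exact two-sided permutation test gave p = 0.1, the smallest value that 3 mice against 3 allow. Fits without 1 of the mice gave log2 fold changes of 0.99 to 1.10, but the edgeR call was kept only without the third control mouse (adjusted p 0.0429) and lost without any of the others (adjusted p 0.0721 to 0.107). Its level was close to the median of the genes tested (percentile 49.4).

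Because Arid3a is active in B cells, which share the peritoneal cavity, the B cell markers were examined beside it. Their summed level was 6.83 to 9.12 CPM in control and 3.20 to 5.58 CPM in diseased-BWF1 libraries, over 9 markers with a record, none of which passed the filter. Counts of single markers were low, with Cd79a at 10.8, 3.09 and 11.5 normalized counts in control and 6.61, 6.08 and 1.01 in diseased-BWF1 mice, and Fcer2a at 4.96, 6.17 and 2.30 against 5.67, 6.08 and 4.03. These markers did not all lie lower in 1 group, and their part in the Arid3a value was not tested. In bulk samples, fewer cells of a type and less RNA per cell cannot be told apart.

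Maf, on chromosome 8 from 115703253 to 115706894 on the minus strand, encodes c-MAF, a bZIP factor of mature tissue macrophages. Its normalized counts were 1010, 1159 and 1565 in control mice and 613, 436 and 903 in diseased-BWF1 mice. Every diseased-BWF1 mouse was below every control mouse, an arrangement shared by 11.2% of the genes tested. The means were 1245 ± 287 and 651 ± 235, and the log2 fold change was -0.94 (SE 0.29, 95% interval -1.61 to -0.27). The edgeR test gave an unadjusted p of 0.0124 and an adjusted p of 0.212, whereas DESeq2 gave an adjusted p of 0.0429 and called the gene as lower. The difference stayed negative in each fit without 1 mouse, from -1.24 to -0.72. Gm15655 overlaps Maf on the opposite strand.

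Irf4, on chromosome 13 from 30749233 to 30766981, encodes the interferon regulatory factor of monocyte-derived PMs and of activated lymphocytes, and was the least abundant of the 9 factors per transcript length. Its normalized counts were 47.2, 62.8 and 27.6 in control mice and 199, 59.7 and 84.7 in diseased-BWF1 mice. The first diseased-BWF1 mouse was far above all others, and the second lay within the control range. The log2 fold change was 1.32 (SE 0.49, 95% interval 0.16 to 2.47, adjusted p = 0.314, edgeR), DESeq2 gave an adjusted p of 0.172, and the value fell to 0.64 without the first diseased-BWF1 mouse.

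**Figure D2:**
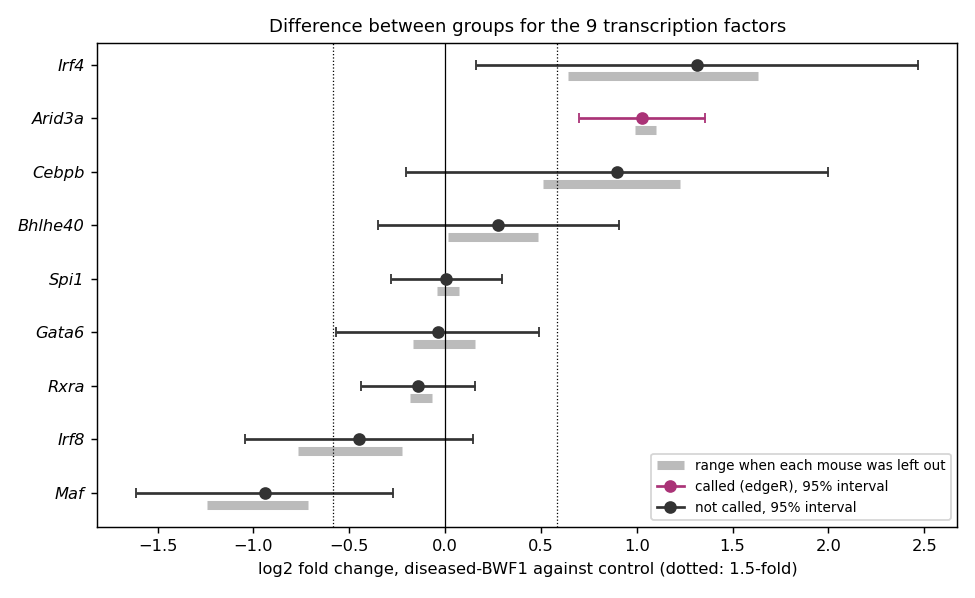
Log2 fold change (horizontal axis) of diseased-BWF1 against control mice for the 9 factors, with 95% intervals from edgeR, and, as gray bars, the range of values from fits without 1 mouse. Arid3a has a narrow interval above the dotted 1.5-fold line, from 0.70 to 1.36, while the intervals of Irf4 and Cebpb are wide and those of Spi1 and Rxra lie close to 0.

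Levels of different genes were compared per kilobase of transcript. In control mice the order of the normalized count per kilobase was Cebpb (842 ± 463), Spi1 (351 ± 18.4), Bhlhe40 (218 ± 77.8), Maf (196 ± 45.2), Rxra (183 ± 17.2), Gata6 (116 ± 22.4), Irf8 (106 ± 10.8), Arid3a (12.5 ± 1.07) and Irf4 (9.62 ± 3.70). The ranges of neighbours overlapped for Cebpb and Spi1, Bhlhe40 and Maf, Maf and Rxra, Gata6 and Irf8, and Arid3a and Irf4. In diseased-BWF1 mice Maf stood after Gata6 in this order, at 102 ± 37.0 per kilobase, with a range that overlapped those of Gata6 (113 ± 27.7) and Irf8 (77.7 ± 28.1). Arid3a (25.5 ± 0.475) and Irf4 (24.0 ± 15.6) remained the lowest.

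The transcript records behind each gene were then examined. The 9 factors had 21 records, of which 13 passed the filter, and none was called over the 20332 records tested, where edgeR called 0.0639%. Unadjusted p-values under 0.05 were found for 2 of the 13 and for 6.30% of all records tested, and DESeq2, which called 2.79% of records, called 1. This record, NM_007880.4 of Arid3a, had 34, 61 and 34 counts in control and 98, 135 and 120 counts in diseased-BWF1 mice, with a log2 fold change of 1.43 (SE 0.37, adjusted p = 0.391 with edgeR and 0.0306 with DESeq2). It held 63.5% of the pooled Arid3a counts in control and 85.1% in diseased-BWF1 mice. By mouse, the shares were 43.6%, 100% and 53.1% in control and 69.0%, 100% and 87.0% in diseased-BWF1 mice. The groups thus overlapped in these shares, and a difference in them was not tested. Another curated record of Arid3a, NM_001288625.1, had 34, 0 and 24 counts in control mice and 0 in every diseased-BWF1 mouse, and predicted records held the rest. With curated records alone, the log2 fold change of Arid3a was 0.92 (adjusted p = 0.169, edgeR).

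Rxra was counted mostly on a predicted record, XM_006497805.1, which held 77.4% of its counts in control and 72.4% in diseased-BWF1 mice, while the curated NM_011305.3 held 22.1% and 27.6%. With curated records alone its log2 fold change turned to 0.18, and in the third control mouse the curated NM_011305.3 held only 7.25%. The 3 records of Cebpb had the same count in every library to within 1 count, so they carry no separate information. Spi1 was counted mainly on NM_011355.2 (84.2% and 87.2%), Gata6 on 1 record with 98.8% of its counts in control mice, and Bhlhe40, Irf4 and Maf had 1 record each.

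**Figure D3:**
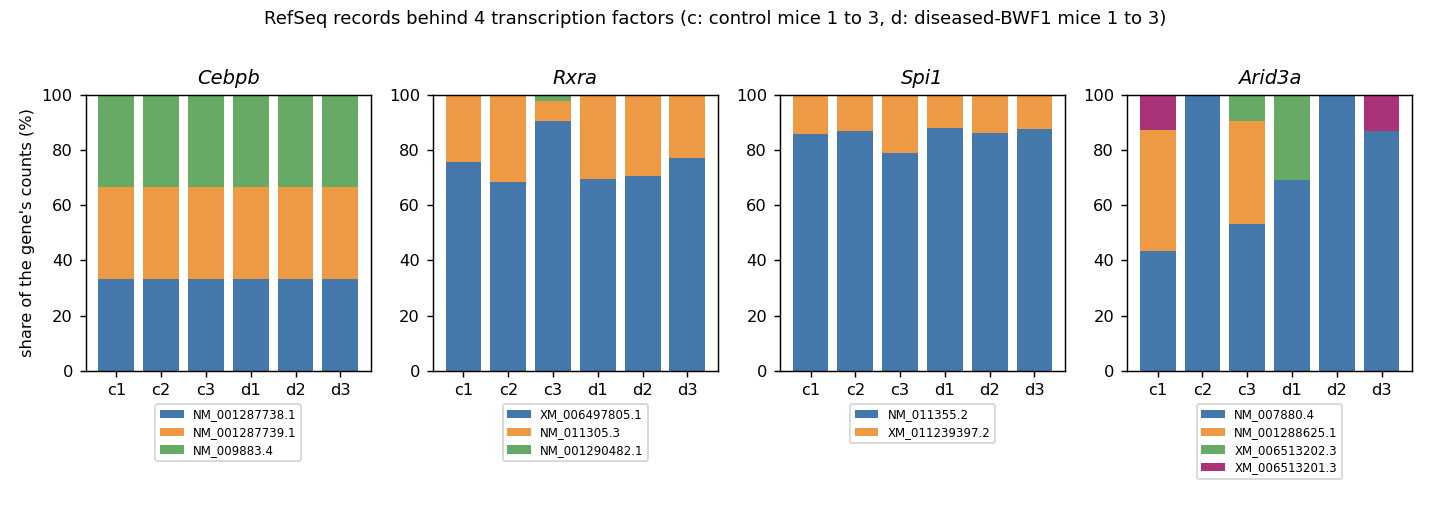
Share of the counts (vertical axis, percent) of Cebpb, Rxra, Spi1 and Arid3a on each of their RefSeq records in control mice (c1 to c3) and diseased-BWF1 mice (d1 to d3). The shares of Cebpb are equal in every mouse, those of Spi1 vary moderately, and those of Rxra and Arid3a differ between mice of the same group. NM_011305.3 holds 7.25% to 31.7% of Rxra in control mice, and NM_007880.4 holds 43.6% to 100% of Arid3a over all mice.

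Paralogs of the 9 factors were compared next, since related factors can bind the same sites. Of 27 paralogs, 15 were tested and none was called by edgeR, DESeq2 or limma-voom. An unadjusted p under 0.05 was found for 3, all of them lower, against 795 of all 10502 genes tested that were lower at this p. The median log2 fold change of the paralogs was 0.09. Irf2 had 1372 ± 233 and 1251 ± 161 normalized counts (log2 fold change -0.13). A pair of paralogs with low counts was named after their values were seen. Arid3b, with 29.8, 14.4 and 17.2 normalized counts in control and 3.78, 3.04 and 11.1 in diseased-BWF1 mice, had a fitted log2 difference of -1.78 (adjusted p = 0.227, edgeR), opposite in sign to Arid3a. Bhlhe41 had 14.9, 23.7 and 43.6 against 16.0, 5.06 and 12.1 normalized counts, far below Bhlhe40. Gata1 had no count in any library.

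**Figure D4:**
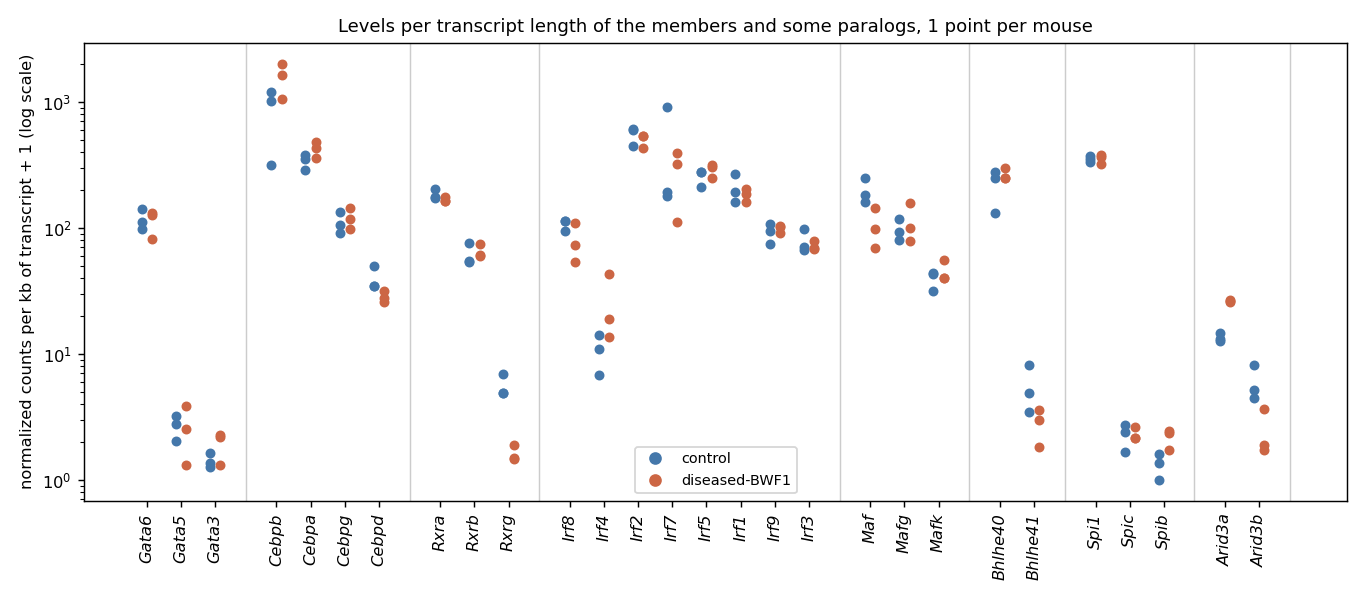
Normalized counts per kilobase of transcript plus 1 (vertical axis, log scale) of the 9 factors and some of their paralogs, with 1 point per control or diseased-BWF1 mouse and families separated by lines. Gata6, Cebpb, Rxra, Spi1, Bhlhe40 and Arid3a lie above the paralogs drawn beside them, apart from Cebpb in the third control mouse, while Irf8 and Irf4 lie below Irf2.

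Nuclear receptors that pair with RXR and genes of retinoid handling were examined as the pathway around Rxra and Gata6. Of 13 receptors 9 were tested, none was called by edgeR and the median log2 fold change was -0.06. An unadjusted p under 0.05 was found for 2, both higher, against 590 of all 10502 genes tested that were higher at this p. Rara, the retinoic acid receptor alpha gene, had 280, 157 and 191 normalized counts in control and 408, 362 and 421 in diseased-BWF1 mice. All diseased-BWF1 mice were above all control mice, as for 9.58% of all genes tested. The log2 fold change of Rara was 0.92 (SE 0.21, adjusted p = 0.109 with edgeR and 0.0105 with DESeq2, which called it). Rarg, the gamma receptor gene, had 546 ± 11.3 and 722 ± 82.3 normalized counts, also without overlap, and differed by 0.40 on the log2 scale (adjusted p = 0.240, edgeR).

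Of 14 retinoid handling genes 7 were tested and none was called by edgeR. An unadjusted p under 0.05 was found for 3, all higher, against 590 of all 10502 genes tested that were higher at this p. Tgm2, a transglutaminase gene known to be induced by retinoic acid, had 132, 121 and 118 normalized counts in control and 269, 198 and 382 in diseased-BWF1 mice. The groups did not overlap, with diseased-BWF1 mice above, as for 9.58% of all genes tested. Tgm2 differed by 1.19 on the log2 scale (SE 0.23, adjusted p = 0.0718 with edgeR and 0.00144 with DESeq2, which called it). Dhrs3, a retinaldehyde reductase gene, had 1273 ± 272 and 1165 ± 60.8 normalized counts (log2 fold change -0.13). The median log2 fold change of the 7 genes was 1.19, against 0.01 for all genes, and 0.77 without the third control mouse. Both medians were the value of a single gene, Cyp26b1, named after its values were seen. With all mice, the log2 fold change was above 0 for 5 of the 7 genes and below 0 for 2. Cyp26b1 had 73.6, 33.9 and 11.5 normalized counts in control and 86.9, 140 and 51.4 in diseased-BWF1 mice. Its groups overlapped (SE 0.60, adjusted p = 0.469, edgeR), and the list was not tested as a set. Besides Tgm2, the genes with an unadjusted p under 0.05, named after their values were seen, were Aldh1a2 and Cyp26a1. Aldh1a2, which makes retinoic acid, had 24.4 ± 7.31 and 60.5 ± 27.0 normalized counts (log2 fold change 1.32, adjusted p = 0.219, edgeR). Its groups did not overlap, with diseased-BWF1 mice above, as for 9.58% of all genes tested. Cyp26a1, which degrades retinoic acid, had 24.1 ± 13.7 and 88.0 ± 77.9.

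Among 24 other transcription regulators of macrophages, 21 were tested and none was called by edgeR. Of these, 3 were higher and 1 lower at an unadjusted p under 0.05, against 590 and 795 of all 10502 genes tested. The median log2 fold change of the list was 0.16. Klf2, a repressor of macrophage activation, had 2535 ± 428 and 2950 ± 196 normalized counts (log2 fold change 0.22), and Klf6 had 969 ± 89.4 and 1004 ± 132 (log2 fold change 0.05). DESeq2 called 1 gene, Nr4a1, an immediate early nuclear receptor gene named after its values were seen. It had 38.1, 58.6 and 12.6 normalized counts in control and 142, 151 and 88.7 in diseased-BWF1 mice (log2 fold change 1.79, adjusted p = 0.149 with edgeR and 0.0119 with DESeq2).

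The identity of the sorted cells was checked with marker genes. All 14 core macrophage genes were tested and none was called by edgeR. At an unadjusted p under 0.05, 1 was higher and 1 lower, against 590 and 795 of all 10502 genes tested. The groups did not overlap for 1 gene that was higher and 4 that were lower in diseased-BWF1 mice. Over all genes tested these shares were 9.58% and 11.2%. Lyz2 had 119968 ± 28957 and 87557 ± 9669 normalized counts, and Itgam, the gene for CD11b, 24219 ± 3083 and 26561 ± 1809. Cd68, named after its values were seen, was called lower by DESeq2 alone (log2 fold change -1.10, adjusted p = 0.0718 with edgeR and 0.000124 with DESeq2). All 20 genes of large resident PMs were tested and none was called by edgeR, with a median log2 fold change of -0.17. At an unadjusted p under 0.05, 1 was higher and 5 lower, against 590 and 795 of all 10502 genes tested. The log2 fold change was above 0 for 7 of the 20 and below 0 for 13. Fn1 and Prg4 were the most abundant, with log2 fold changes of 0.31 and 0.29. DESeq2 called 2 as lower, Cxcl13 (log2 fold change -1.48) and Fcna (-0.80), named after their values were seen. The other genes of this list with an unadjusted p under 0.05 (edgeR) were also named after their values were seen. F10 was higher (log2 fold change 0.54), and Icam2 (-0.55), Timd4 (-0.53) and Aspa (-0.58) were lower. The level of Gata6 itself differed between the groups by less than the spread between mice.

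Of 20 genes of small or monocyte-derived PMs, 13 were tested and the median log2 fold change was -0.18. By edgeR 1 was called higher and 2 lower, against 0.400% and 0.819% of all genes tested. Cd209a, a C-type lectin gene, fell from 134, 213 and 280 normalized counts in control mice to 7.55, 18.2 and 5.04 (log2 fold change -4.34), and Mrc1, the gene for the mannose receptor CD206, fell from 2233 ± 22.9 to 1060 ± 236 (log2 fold change -1.08, adjusted p = 0.0440, edgeR). DESeq2 called Folr2 as lower in addition, named after its values were seen. Without the third control mouse, edgeR called 1 gene of the list, Cd209a, against 18 higher and 21 lower of 10785 genes tested. In that fit Mrc1 had an adjusted p of 0.0901 (edgeR). Retnla varied widely, with 1851, 4836 and 3091 normalized counts in control and 3071, 424 and 52.4 in diseased-BWF1 mice, and Lyz1 had 12053 ± 6472 and 7024 ± 943. With limma-voom, 1 gene of this list was called higher and 2 lower, against 31 and 60 of all 10502 genes tested, and 0 genes of the other lists were called. The genes of this list therefore did not move in 1 direction, and the share of small PMs in each sort was not measured.

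**Figure D5:**
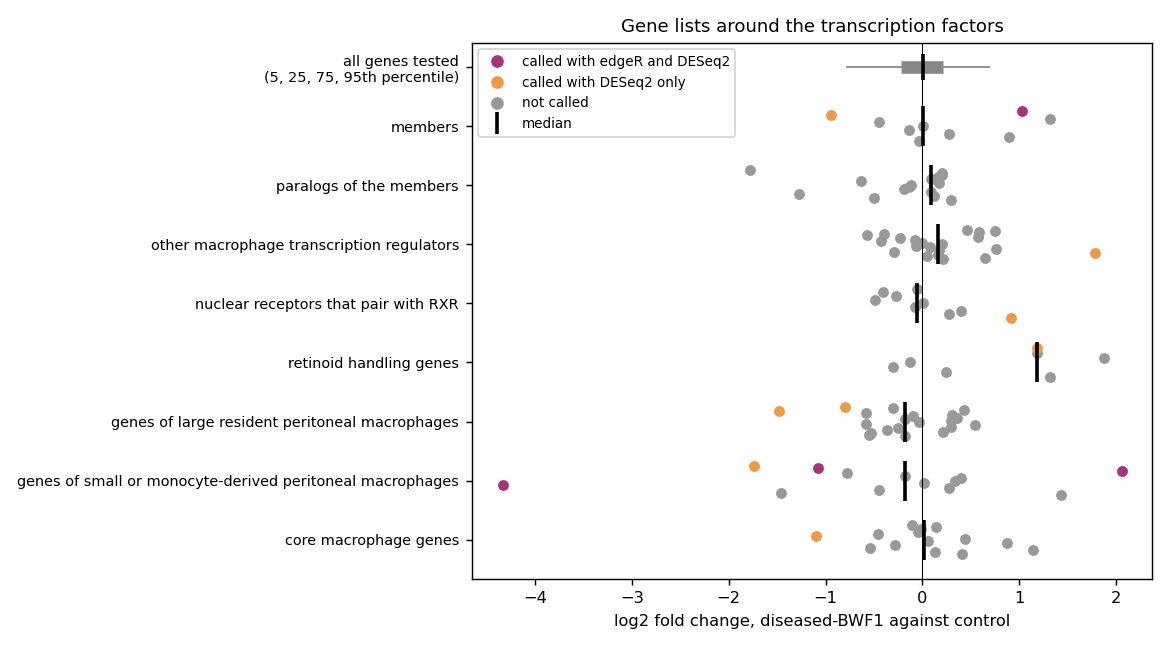
Log2 fold change (horizontal axis) of diseased-BWF1 against control mice for each tested gene of the lists, with black lines at the medians and, for all 10502 genes, the 5th, 25th, 75th and 95th percentiles. The medians lie near 0 apart from that of the 7 retinoid handling genes at 1.19. That median is the value of 1 gene, Cyp26b1, whose groups overlap. Of the 7 genes, 5 lie above 0 and 2 below. Genes called by edgeR appear among the 9 factors and the small or monocyte-derived PM genes.

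Markers of other cell types were low in both groups, and their part in the values above was not tested. The summed level of T and NK cell markers was 2.37 to 4.73 CPM in control and 1.06 to 3.59 CPM in diseased-BWF1 libraries, led by Cd3d and Cd2. Mast cell and eosinophil markers had 2.10 to 2.82 and 1.33 to 4.62 CPM, with Tpsb2, Mcpt4, Kit, Fcer1a, Epx and Prg2 at 0. Mesothelial and stromal markers had 1.09 to 2.96 and 0.769 to 1.07 CPM, with Msln, Upk1b, Krt8, Col3a1 and Cdh5 at 0, and erythroid markers 3.15 to 3.55 and 1.28 to 2.66 CPM. Neutrophil markers had 322 to 341 CPM in control and 210 to 340 CPM in diseased-BWF1 libraries, nearly all from Csf3r, which macrophages also express. Dendritic cell markers, mostly Bst2, had 64.6 to 123 and 42.7 to 66.1 CPM, and Zbtb46 was the next most abundant.

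The genes whose levels followed a factor most closely over the 6 libraries were found by Pearson correlation of log2 CPM among the 10502 genes, as a description. For Gata6 these were Abi2 (r = 0.994), Metrn (0.985) and Szrd1 (0.983). For Maf they were Rab29 (0.997), S100a11 (0.994) and Psmc5 (0.993). For Arid3a they were Cnbd2 (0.995), LOC100861749 (0.995) and Cd52 (0.994), and for Arid3a and Maf the difference between groups is shared by all the points.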

How the data were processed

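PMs of 3 control and 3 diseased-BWF1 female mice were sorted, and RNA was sequenced as stranded mRNA libraries with paired-end reads. The authors deposited counts per RefSeq record as whole numbers without normalization, in 1 file per mouse. The submitters' processing notes name Salmon 0.8.0, DESeq2 and GRCm38.p6 without their roles, so the whole numbers may be rounded estimates, and the handling of shared reads is not given in the sources used here. Of 107193 records, 45749 matched a RefSeq gene table with the same version and 40709 with another version. The 20735 unmatched records, with 6.98% to 10.9% of the counts, were left out.

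Counts were summed per gene and compared with edgeR 4.0.16 in R 4.3.3 (filterByExpr, TMM, glmQLFit, glmQLFTest, Benjamini-Hochberg adjustment over 10502 genes, no covariate). DESeq2 1.42.0 and limma 3.58.1 (voom) were alternatives. Normalized counts used DESeq2's size factors and errors are SDs. Depth was 3629901 to 5003360 counts per library, and the floor of 3 counts covers counting error only. Single values were also compared by exact two-sided permutation tests. No 2 libraries were duplicates, the least different pair differing by 8.79 times the sampling variance. Other alternatives were other scalings and filters, robust dispersion, age as a covariate, the replicate number as a block, curated records alone, unmatched records kept and each mouse left out. Lists without the third control mouse were added after seeing the data. Code was tested on simulated data.

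The 9 factors and all lists were chosen with earlier results of these data known. Named from each list were genes called by edgeR (up to 4) and the 2 most abundant genes, and for Gata6 and each factor called by edgeR or DESeq2 the 3 most correlated genes. Other genes are said to be named after their values were seen. Per-length levels used transcript lengths of GENCODE on GRCm38.p6. Some genes that this rule covers are not reported here. No deposited file was left out.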

Additional observations from a re-analysis of the deposited data

How the results depend on the processing

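Of the 9 log2 fold changes, those of Cebpb, Bhlhe40, Irf8, Irf4, Maf and Arid3a kept their sign under all 17 alternatives. Values near 0 changed sign. With library totals in place of TMM Gata6 was 0.0087, without the filter on low counts Spi1 was -0.011, and with curated records alone Rxra was 0.18. Leaving out each mouse gave -0.17 to 0.16 for Gata6, -0.044 to 0.073 for Spi1 and 0.99 to 1.10 for Arid3a, and 0 to 1 of the 9 factors called. Arid3a also lost its call with curated records alone (0.92, 0 factors called) and with the replicate number as a block (1.03, adjusted p = 0.0804, edgeR, 0 factors called). Maf passed only with DESeq2 (-0.93), which called 2 factors, 10 genes of the lists against 3 with edgeR, 1 record of the 9 factors against 0, and 133 genes higher and 240 lower over all genes. The numbers of genes called higher and lower were 89 and 170 without the filter (7 in the lists), 27 and 57 with at least 10 counts in every library, 19 and 22 with unmatched records kept, and 9 and 7 with curated records alone (1 in the lists). Age as a covariate left 53 lower. Leaving out 1 mouse gave 11 to 26 higher, 10 to 30 lower and 1 to 3 in the lists. The cause of these changes was not tested, except that fewer mice or fewer records were used. With the replicate block 18 genes were higher and 20 lower. Same-numbered mice had correlations of their deviations of 0.118, 0.00554 and 0.157, so not every pair exceeded 0.1, the second control mouse did not correlate best with its own number, and the samples share only a number. Irf4 had as few as 24 counts in a library. Its spread between diseased-BWF1 mice (199, 59.7 and 84.7 normalized counts) limits what can be said of it.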

Other observations

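MHC class II genes had high levels in 1 mouse of each group, in the same library of diseased-BWF1 mice in which Irf4 was highest. Cd74, the invariant chain gene, had 1936, 218 and 198 normalized counts in control mice and 1621, 262 and 197 in diseased-BWF1 mice. H2-Aa had 563, 77.2 and 55.1 against 519, 117 and 70.6. The first control mouse, with Cd74 at 1936, had 47.2 normalized counts of Irf4, while the first diseased-BWF1 mouse had 199. Irf7, an interferon-induced paralog of Irf4 and Irf8, was also highest in the first control mouse, with 2030, 432 and 402 normalized counts in control and 721, 874 and 248 in diseased-BWF1 mice. These genes were named after their values were seen, and no comparison between groups was drawn from them.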
